A study of Mus musculus with 4 samples.

Results

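The genes examined here encode insulin-like growth factor 1, its receptor, the growth hormone receptor and 6 IGF-binding proteins (Igf1, Igf1r, Ghr and Igfbp2, Igfbp3, Igfbp4, Igfbp5, Igfbp6 and Igfbp7). They were taken as the rows of the deposited expression table whose gene symbol equals one of these names, which gave 9 of 24532 genes. All 9 were above 0 in at least 1 library, and all 9 reached 1 FPKM in at least 1 library. RNA sequencing was done on articular cartilage of wild-type C57BL/6 mice, with 1 library from pooled mice for each of 4 groups. The groups were young sham and young injured at 3 weeks of age, and adult sham and adult injured. The adult age is 12 weeks by the sample titles and 14 weeks by the other labels. The age written in the paper is different again. Injured cartilage was taken 3 days after surgery. The operation was a full-thickness cartilage injury of the femoral groove in the paper's account but destabilization of the medial meniscus by the labels. The adult sham label spans days 3 to 14.

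Growth hormone acts through its receptor, Ghr, on the liver and on skeletal tissues, where it raises the production of IGF-1. IGF-1 binds its receptor tyrosine kinase, Igf1r, and supports proliferation, survival and matrix synthesis in chondrocytes. IGF-binding proteins hold IGFs in the extracellular space and can restrain or prolong their action, and they are released from IGFs by proteases.

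Expression was given as FPKM, the fragments assigned to a gene relative to transcript length and to all mapped fragments, so levels of different genes may be compared per length. Changes are log2 ratios of FPKM + 1 between libraries, and a gene was counted as changed at 2-fold or more. With 1 library in each group there is no spread between replicates, so no value below has an error or a p-value and every difference is one between these libraries. Where 4 values follow each other, young libraries come before adult ones and sham before injured. The same counts over the 18181 genes above 0 in at least 1 library stand beside those of the members. The adult sham library had more genes at 0 than the others (8390 against 7457 to 7714), and 26.5% of its summed FPKM came from 10 genes, against 14.7% to 17.5% in the others. The median log2 ratio of adult to young sham over genes with 1 transcript was -0.21 among transcripts of at most 1443 bases and -0.50 among those of at least 4653 bases. All 15 chondrocyte markers were at 1 FPKM or more in every library, with a geometric mean of 872.0 (sham) and 735.0 (injured) FPKM in young and 262.0 (sham) and 342.9 (injured) FPKM in adult cartilage. Of the 15, 10 were lower by 2-fold or more in adult than in young sham cartilage and 2 were higher. Their sum lay the other way between the sham libraries, 24653 FPKM for young against 42620 FPKM for adult, since Cytl1 was at 648.1 and 26541 FPKM and Comp at 1324 and 7203 FPKM. In such tissue RNA, fewer cells of a type and less RNA per cell cannot be told apart.

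Of the members, 4 differed by 2-fold or more in at least 1 comparison of 2 libraries. The start regions of 3 of them, Igfbp3, Igfbp6 and Ghr, are shown for the letters they hold, as the 250 bases before an annotated start. They come from RefSeq (GRCm38.p6), run 5′ to 3′ along the gene, and none of these bases lies in an annotated exon of the gene (GENCODE M21). The region of Igfbp3 is chr11:7213924-7214173 on the minus strand, that of Igfbp6 is chr15:102143936-102144185 on the plus strand, and that of Ghr is chr15:3581843-3582092 on the minus strand, which precedes 1 of its 2 listed starts. Capitals mark matches to the 5 motifs searched on both strands, which were the CCAAT box by its own letters, the TATA box as TATAAA, the GC box as GGGCGG, the AP-1 site as TGANTCA, and the GAS element, bound by STAT factors, as TTCNNNGAA.
Igfbp3: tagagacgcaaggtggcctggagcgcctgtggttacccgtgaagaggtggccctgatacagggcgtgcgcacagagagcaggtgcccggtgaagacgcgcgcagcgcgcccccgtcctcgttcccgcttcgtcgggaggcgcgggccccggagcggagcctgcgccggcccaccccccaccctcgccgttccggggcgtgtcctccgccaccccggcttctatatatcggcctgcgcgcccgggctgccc
Igfbp6: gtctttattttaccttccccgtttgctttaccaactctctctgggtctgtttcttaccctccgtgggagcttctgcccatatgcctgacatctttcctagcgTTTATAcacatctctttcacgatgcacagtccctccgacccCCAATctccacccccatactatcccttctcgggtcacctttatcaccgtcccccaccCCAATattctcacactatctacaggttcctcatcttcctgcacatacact
Ghr: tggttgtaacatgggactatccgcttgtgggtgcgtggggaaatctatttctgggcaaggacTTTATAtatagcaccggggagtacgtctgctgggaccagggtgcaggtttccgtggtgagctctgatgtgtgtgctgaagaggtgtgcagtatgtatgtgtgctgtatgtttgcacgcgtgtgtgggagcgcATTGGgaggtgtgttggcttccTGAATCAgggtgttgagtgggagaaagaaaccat

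None of the 5 motifs was found in the Igfbp3 region. The Igfbp6 region held a TATA box match 148 bases before the start and CCAAT box matches 107 and 50 bases before it. The Ghr region held matches to the TATA box, the CCAAT box and the AP-1 site, the last 34 bases before the start. Igf1, whose start region overlaps an annotated exon and is not printed, held an AP-1 match (TGAATCA) 37 bases before its start. The windows searched reach 50 bases past the start, and all 9 members had at least 1 of them, 11 in all. Among these 11 windows, 3 held the AP-1 letters, 3 the TATA box, 4 the GC box, 4 the CCAAT box and 0 the GAS element. Of all 32851 windows of the same length, 7.81% held the AP-1 letters, 13.6% the TATA box, 35.7% the GC box, 37.4% the CCAAT box and 8.30% the GAS element. The GC content of a window ranged among members from 49.7% in Igfbp6 to 76.0% in Igf1r, with 8 and 48 CpG dinucleotides, against a median of 52.7% and 7 over all windows. A match is a stretch of letters and not a measured binding site.

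The 9 genes spanned a wide range of levels. Igfbp7 was the most abundant in each library, and it stood above 99.7% to 99.8% of the genes tested. Below it came Igfbp5, Ghr and Igfbp4 in young sham cartilage, at 60.7 to 90.5 FPKM. Igf1, Igf1r and Igfbp6 were at 5.01 to 6.95 FPKM in that library, and Igfbp3 and Igfbp2 were lowest at 1.96 and 1.58 FPKM. In adult sham cartilage Igfbp6 stood above Ghr, and Igf1 was the lowest of the 9. Without replicates it cannot be said which neighbours in these orders differ beyond their spread. The highest level divided by the lowest over the 4 libraries was 29.5 for Igf1, 13.6 for Igfbp3, 6.09 for Igfbp6, 4.08 for Igfbp2 and 3.77 for Ghr. It was 1.77 for Igf1r, 1.76 for Igfbp4, 1.55 for Igfbp5 and 1.19 for Igfbp7.

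**Figure D1:**
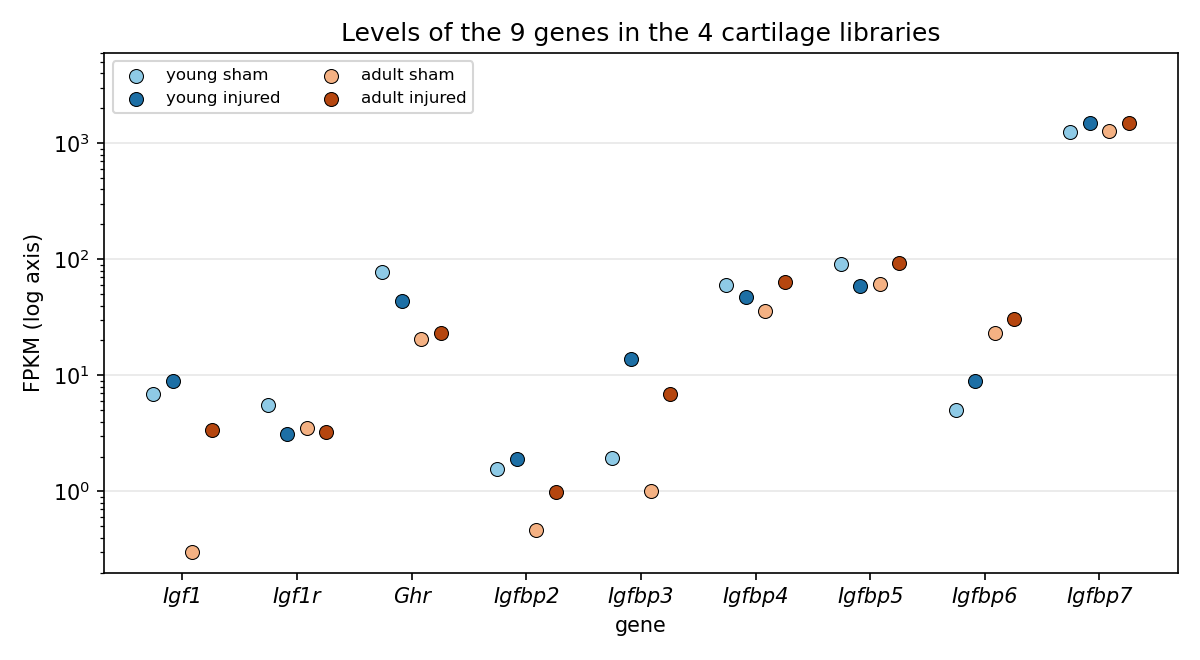
Level of each of the 9 genes in FPKM (log axis) in the 4 libraries, 1 point per library. Igfbp7 lies highest in all 4 libraries, at 1264 FPKM or more, Igf1 is lowest in adult sham cartilage at 0.303 FPKM, and Igfbp3 lies higher in both injured libraries than in both sham libraries.

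Igf1, the ligand (Entrez Gene 16000, chr10:87858265-87937047, GRCm38.p6), was at 6.95 (sham) and 8.96 (injured) FPKM in young and 0.303 (sham) and 3.37 (injured) FPKM in adult cartilage. Both young libraries were above both adult libraries, and the adult sham library was far below the other 3. The log2 ratio of injured to sham was 0.33 in young and 1.75 in adult cartilage, and the FPKM themselves differed 1.29-fold and 11.1-fold. The low adult sham level makes the adult ratio depend on the value added before the logarithm. It was 3.11 with 0.1 FPKM added and 0.66 with 5 FPKM added, and the latter is under 2-fold. Adult sham was lower than young sham by a log2 ratio of -2.61, which was -4.13 with 0.1 FPKM and -1.17 with 5 FPKM added. In injured cartilage the adult library was lower than the young by -1.19 on the log2 scale, or -0.74 with 5 FPKM added. Igf1 overlaps an antisense gene, Igf1os, and whether the authors' counting used the strand is not given in the sources used here.

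Igf1r, the receptor for IGF-1 (16001, chr7:67952257-68233668), was at 5.57 (sham) and 3.14 (injured) FPKM in young and 3.52 (sham) and 3.25 (injured) FPKM in adult cartilage. Young sham cartilage was highest, and the other 3 libraries lay close together. The log2 ratio of injured to sham was -0.67 in young and -0.09 in adult cartilage, and that of adult to young sham was -0.54. The last was -0.18 with median-of-ratios scaling and -0.14 after quantile normalization. The Igf1r transcript has 11409 bases, and the median sham ratio among transcripts of at least 4653 bases was -0.50. None of these reached 2-fold.

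Ghr, the growth hormone receptor (14600, chr15:3317755-3583352), was at 77.9 (sham) and 43.8 (injured) FPKM in young and 20.7 (sham) and 23.1 (injured) FPKM in adult cartilage. Both young libraries were above both adult libraries. Adult sham was 3.77-fold below young sham in FPKM, a log2 ratio of -1.87 that ranged from -1.92 to -1.44 over the scalings of the libraries. Young injured was below young sham by -0.82 on the log2 scale, and 3.01% of the 12418 genes whose mean reached 1 FPKM lay lower. The adult injury ratio was 0.16 on the log2 scale. It was -0.17 with median-of-ratios scaling and -0.06 after quantile normalization, so it has no settled direction.

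Markers of other cells also differed where Igf1 and Ghr did. After injury in adult cartilage, where Igf1 was higher, 13 of 15 macrophage, 7 of 9 endothelial, 5 of 13 fibroblast and synovium and 5 of 15 chondrocyte markers were higher by 2-fold or more. In the same comparison 2 of the fibroblast and synovium markers and 1 of the chondrocyte markers, Cytl1, were lower, and the chondrocyte sum was 42620 FPKM in sham and 19774 FPKM in injured cartilage. The macrophage sum there was 336.3 FPKM in sham and 1708 FPKM in injured cartilage. Of 8 erythroid markers, 6 were lower by 2-fold or more in adult than in young sham cartilage and 8 in adult than in young injured cartilage, with sums of 9679, 18446, 6957 and 3032 FPKM. Hbb-bs of that list went the other way between the sham libraries, with 105.7 FPKM when young against 2868 FPKM when adult, a large portion of the adult sham sum. Of 10 skeletal muscle markers, 6 were higher in adult than in young sham cartilage, and 7 were lower after injury in adult cartilage, with sums of 854.4, 662.0, 1555 and 453.8 FPKM. The chondrocyte markers are given above. The part of these cells in the values of Igf1 and Ghr was not tested.

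Among the binding proteins, Igfbp3, the main IGF carrier in serum, had the largest ratios of injured to sham. Igfbp3 (16009, chr11:7206086-7215498) was at 1.96 (sham) and 13.7 (injured) FPKM in young and 1.01 (sham) and 6.87 (injured) FPKM in adult cartilage. Both injured libraries were above both sham libraries, and at each state the young library was above the adult. The FPKM were 7.03-fold higher after injury in young and 6.80-fold higher in adult cartilage, with log2 ratios of 2.32 and 1.97. With 5 FPKM added the adult ratio was 0.98, just under 2-fold. The log2 ratio of adult to young was -0.56 in sham and -0.91 in injured cartilage. If 1 step of the lowest FPKM is 1 fragment, the 4 values of Igfbp3 rested on about 125, 873, 75 and 429 fragments.

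Markers of other cells moved with Igfbp3. Of 15 macrophage markers, 13 were higher by 2-fold or more after injury in young cartilage and 13 in adult cartilage, and their summed level was 209.1 (sham) and 1978 (injured) FPKM in young and 336.3 (sham) and 1708 (injured) FPKM in adult cartilage. Of 9 endothelial markers, 7 were higher in each age, with sums of 18.6, 88.8, 20.6 and 74.6 FPKM, ordered likewise. Of 13 fibroblast and synovium markers, 5 were higher at each age, with sums of 4673, 6927, 6121 and 11576 FPKM, while Prg4 was lower in young cartilage (-2.28) and Dpt and Clec3b were lower in adult cartilage (-1.08 and -1.07). Cd163 of the macrophage list and Vwf of the endothelial list were under 1 FPKM in every library. The genes whose centred log2 levels lay nearest to those of Igfbp3 over the 4 libraries were Cd93, Cd53 and Cfp, at root mean square distances of 0.110, 0.133 and 0.160. Cd93 was at 1.62, 11.6, 0.870 and 7.21 FPKM. The part of these cells in the Igfbp3 values was not tested.

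Igfbp6, a binding protein with a preference for IGF-2 (16012, chr15:102144186-102149512), differed mainly with age. It was at 5.01 (sham) and 8.92 (injured) FPKM in young and 23.4 (sham) and 30.5 (injured) FPKM in adult cartilage. Both adult libraries were above both young libraries. The adult FPKM were 4.67-fold higher in sham and 3.42-fold higher in injured cartilage, with log2 ratios of 2.02 and 1.67. Injury ratios were 0.72 in young and 0.37 in adult cartilage on the log2 scale and stayed under 2-fold. Of 8 osteoblast and osteocyte markers, 5 were higher by 2-fold or more in adult sham than in young sham cartilage, whereas Runx2, Phex and Sp7 were lower by log2 ratios of -0.50, -0.45 and -0.01. The summed level of the 8 was 565.2 (sham) and 827.7 (injured) FPKM in young and 4915 (sham) and 5022 (injured) FPKM in adult cartilage. Most of the adult sham sum was Ibsp, at 4136 FPKM. Of 7 hypertrophic chondrocyte markers, 3 were higher by 2-fold or more in adult than in young sham cartilage and 4 in the injured comparison, with sums of 953, 3340, 4033 and 8632 FPKM, and Panx3 was lower in adult sham (-1.16). Of 10 skeletal muscle markers, 6 and 1 were higher in these comparisons. Of 15 macrophage markers, 6 and 0 were higher and 1 was lower in each. Of 13 fibroblast and synovium markers, 1 was higher in each of them and 1, Col3a1, was lower in adult sham (-1.17), with geometric means of 51.9, 77.0, 61.8 and 96.8 FPKM. The part of these cells in the Igfbp6 values was not tested.

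Igfbp4 and Igfbp5 shared a pattern in which injured was below sham in young and above sham in adult cartilage. Igfbp4, an inhibitor of IGF action that is cleaved by the protease PAPP-A (16010, chr11:99040005-99052655), was at 60.7 (sham) and 47.5 (injured) FPKM in young and 35.9 (sham) and 63.2 (injured) FPKM in adult cartilage. Igfbp5, which binds extracellular matrix as well as IGFs (16011, chr1:72858065-72874865), stood at 90.5, 59.5, 61.3 and 92.4 FPKM, ordered likewise. For both genes the young sham and adult injured libraries were the highest pair. The log2 injury ratio of Igfbp4 was -0.35 in young and 0.80 in adult cartilage. That of Igfbp5 was -0.60 in young and 0.59 in adult cartilage. None of these 4 ratios reached 2-fold. About 5.78% of the 31-base words of Igfbp4 transcripts also occur in another gene, against at most 0.243% for each other member.

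Igfbp2, which binds IGF-1 and IGF-2 (16008, chr1:72824480-72852474), was at 1.58 (sham) and 1.90 (injured) FPKM in young and 0.465 (sham) and 0.980 (injured) FPKM in adult cartilage. Both young libraries were above both adult libraries. The log2 ratio of adult to young sham was -0.81. It passed 2-fold at -1.57 with 0.1 FPKM added and at -1.13 when the libraries were rescaled to the same sum. That rescaling raised the values of every library, so the added 1 weighed less there too. Igfbp2 and Igfbp5 are neighbours on chromosome 1, on opposite strands and 5590 bases apart, and their levels were ordered differently over the libraries.

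Igfbp7, a secreted protein that binds IGFs with low affinity (29817, chr5:77349240-77408045), was the steadiest of the 9. It was at 1264 (sham) and 1505 (injured) FPKM in young and 1279 (sham) and 1503 (injured) FPKM in adult cartilage. The log2 injury ratios were 0.25 in young and 0.23 in adult cartilage, and the ratios between the ages were 0.02 in sham and -0.00 in injured cartilage. Directions of the adult injury ratio and of both age ratios turned with the scaling, within -0.11 to 0.46. Igfbp7 overlaps Polr2b on the opposite strand.

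**Figure D2:**
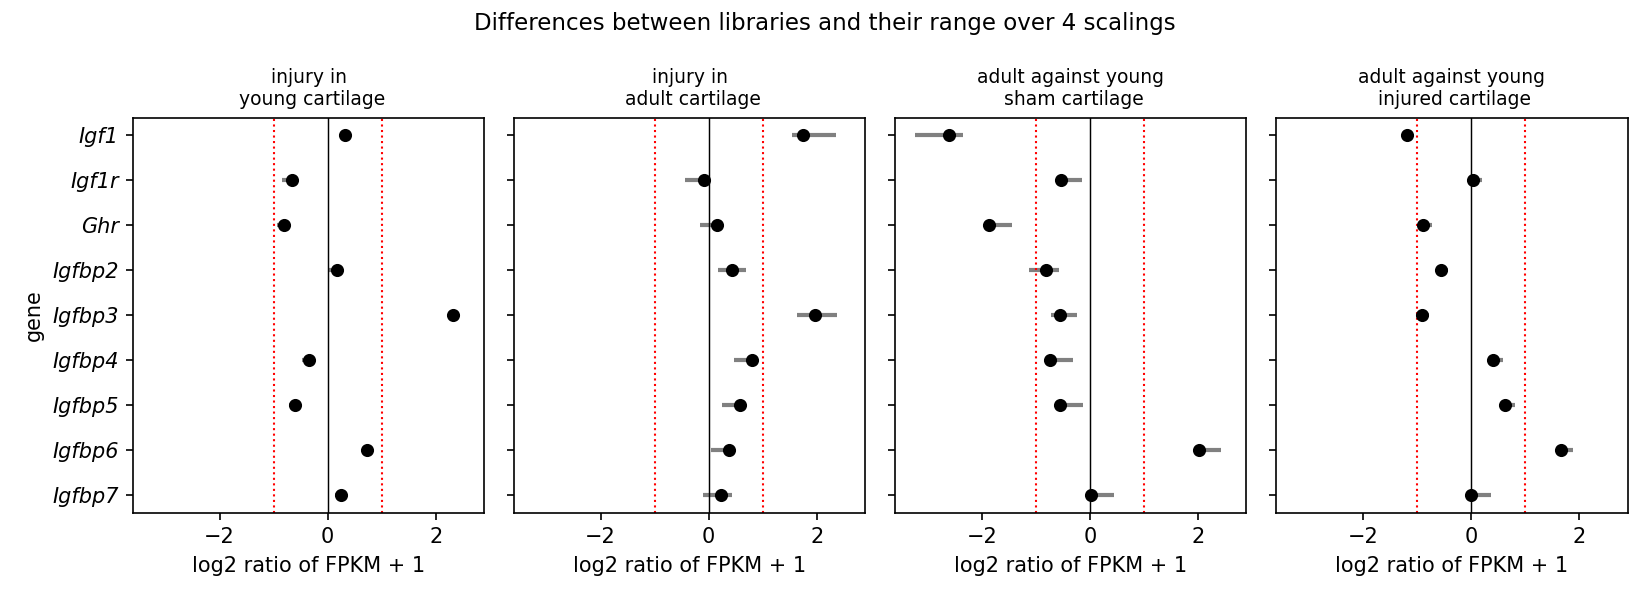
Log2 ratio of FPKM + 1 of the 9 genes in the 4 comparisons, 1 value for each gene and comparison, with dotted lines at 2-fold and grey bars for the range over 4 scalings. Rescaling to the same sum, 1 of the 4, also makes the added 1 weigh less. Igfbp3 lies beyond 2-fold after injury at both ages, Igf1 after injury in adult cartilage only, and Igfbp6 beyond 2-fold higher in both comparisons of adult with young.

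Counted together, 1 of the 9 members was higher by 2-fold or more after injury in young cartilage (Igfbp3). Of the genes tested, 4.57% were higher there and 5.83% passed 2-fold in either direction. After injury in adult cartilage 2 were higher (Igf1 and Igfbp3), against 6.9% higher and 8.37% in either direction. Between the sham libraries 3 differed, with Igfbp6 higher and Igf1 and Ghr lower in adult cartilage, against 13.3%. Between the injured libraries 2 differed, with Igfbp6 higher and Igf1 lower in adult cartilage, against 4.89%. All 9 members reached 1 FPKM in at least 1 library. Among the 13209 genes that did so, the shares in either direction were 8.02%, 11.5%, 18.3% and 6.73% in these 4 comparisons. The split of all genes moved with the scaling, and with median-of-ratios scaling the shares after injury in adult cartilage were 4.41% higher and 2.9% lower, against 6.9% and 1.46% as deposited. Between the sham libraries it was 5.86% higher and 5.13% lower in adult cartilage, against 2.66% and 10.6%, and between the injured libraries 2.19% and 2.53%, against 1.8% and 3.09%. The numbers of members were 2, 3 and 2 under that scaling too. With 9 genes, 1 gene is 11.1% of the list, so these counts say little about the list as a whole. The median log2 ratio of the members was 0.17, 0.43, -0.56 and -0.00 in the 4 comparisons, against 0.00, 0.14, -0.15 and -0.04 over all genes above 0. Over genes at 1 FPKM or more in all libraries the medians were -0.04, 0.23, -0.30 and -0.07.

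**Figure D3:**
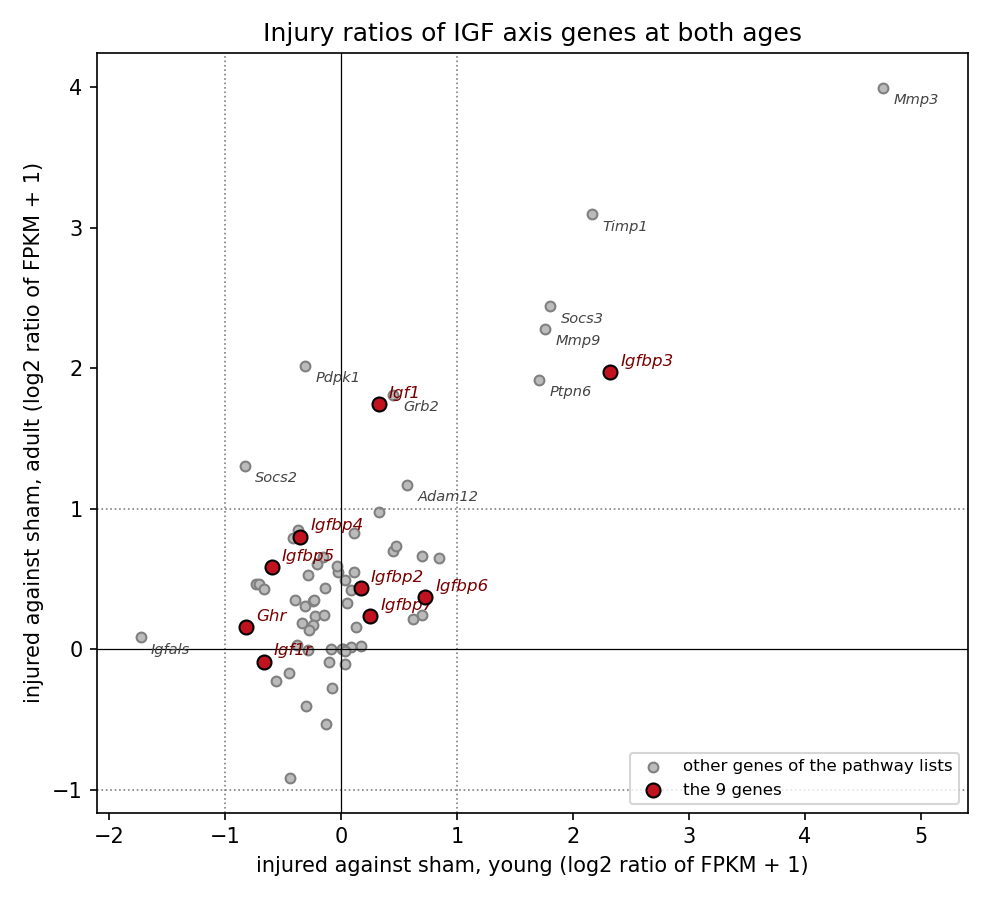
Log2 injury ratio of FPKM + 1 in young (x axis) and adult (y axis) cartilage for the 9 genes and for the genes of the IGF and growth hormone pathway lists, with dotted lines at 2-fold. Igfbp3 lies beyond 2-fold at both ages and Igf1 in adult cartilage only, and Igfbp4, Igfbp5 and Ghr lie left of 0 in young and above 0 in adult cartilage.

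The injury ratio itself was compared between the ages as adult minus young. The difference was 1.42 for Igf1, 1.18 for Igfbp5 and 1.15 for Igfbp4 on the log2 scale, and these 3 members passed 2-fold. Of all genes tested 6.25% did so in either direction, 4.6% with the larger ratio in adult and 1.64% with the larger ratio in young cartilage. Ghr followed at 0.97 and Igf1r at 0.58, and Igfbp2 was at 0.26. Igfbp7 was at -0.02, Igfbp3 at -0.35 and Igfbp6 at -0.36. With 5 FPKM added Igf1 fell under 2-fold, at 0.43, against 2.74 with 0.1 FPKM added. Igfbp4 and Igfbp5 stayed past 2-fold with 5 FPKM added, at 1.06 and 1.12. With median-of-ratios scaling the difference was 0.83 for Igfbp4 and 0.86 for Igfbp5, and of the 3 only Igf1 then passed 2-fold, at 1.34. Over all genes 2.63% then had the larger ratio in adult and 3.12% in young cartilage. Over all genes that passed 2-fold with a larger adult ratio, 84.6% were lowest in the adult sham library. Of all genes tested 49.2% were, and a low adult sham level favours passing by construction. Igf1 and Igfbp4 were also lowest there, and Igfbp5 was lowest in young injured cartilage.

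FPKM of the 6 binding proteins were summed in each library to describe their make-up as mRNA. Igfbp7 made up 88.8% (sham) and 92.0% (injured) of the sum in young and 91.3% (sham) and 88.6% (injured) of the sum in adult cartilage. Igfbp5 followed with 3.64% to 6.36% and Igfbp4 with 2.56% to 4.27%. The share of Igfbp3 was 0.137% (sham) and 0.840% (injured) in young and 0.0721% (sham) and 0.405% (injured) in adult cartilage. The share of Igfbp6 was 0.352%, 0.545%, 1.67% and 1.80% in the same order. When Igfbp7 was left out, Igfbp3 made up 10.5% of the remaining sum in young injured cartilage and Igfbp6 19.2% in adult sham cartilage.

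**Figure D4:**
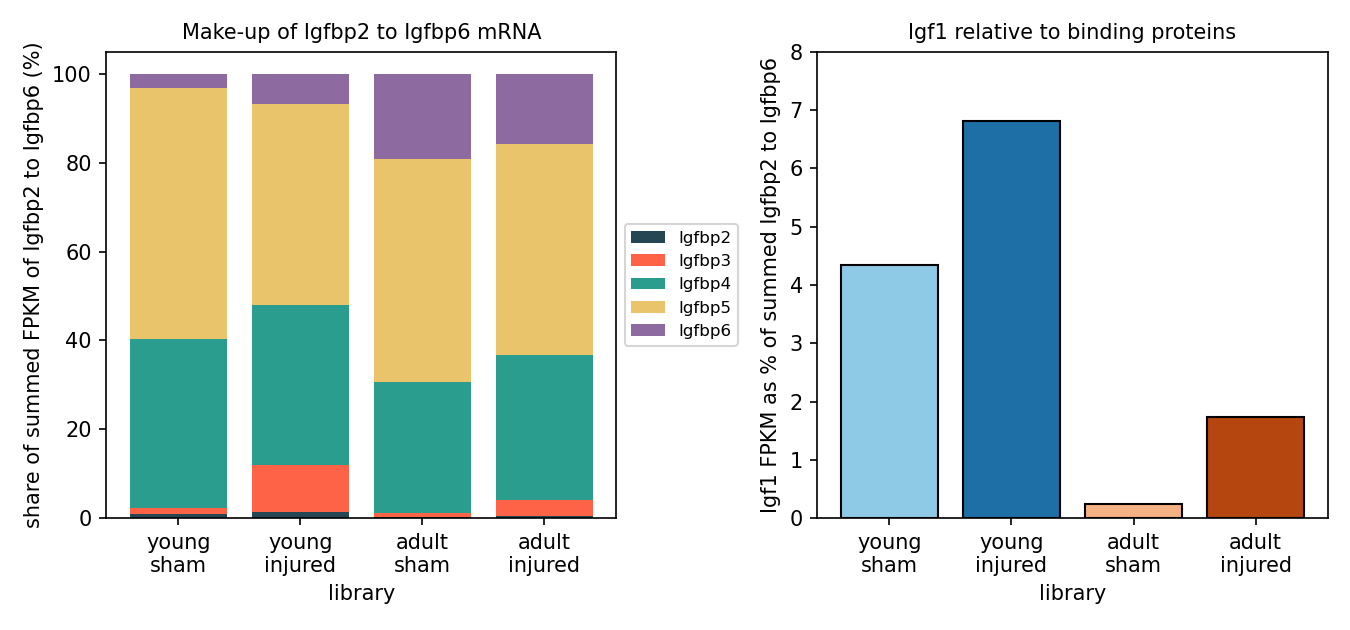
Share of each binding protein in the summed FPKM of Igfbp2 to Igfbp6, and Igf1 as a percent of the same sum, 1 bar per library starting at 0. Igfbp5 and Igfbp4 make up most of each bar, Igfbp3 reaches 10.5% in young injured cartilage, and Igfbp6 makes up 19.2% (sham) and 15.7% (injured) in adult cartilage, while Igf1 is highest in young injured cartilage at 6.81%.

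Igf1 mRNA was set against the binding proteins in the same library, which does not depend on scaling by 1 factor. Igf1 FPKM equalled 0.488% of the sum of the 6 (sham) and 0.547% (injured) in young and 0.0216% (sham) and 0.199% (injured) in adult cartilage. Without Igfbp7 the values were 4.35%, 6.81%, 0.248% and 1.74%. Both young libraries were above both adult libraries on either sum, and within each age the injured library was above the sham.

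Around these members, 5 lists of 63 pathway genes were followed, of which 59 were above 0 in at least 1 library. After injury in young cartilage 5 of the 59 were higher by 2-fold or more and 1 was lower, where 4.57% of all genes tested were higher and 1.27% lower. In adult cartilage 9 were higher and 0 lower, against 6.9% and 1.46%. Between the sham libraries 2 were higher and 14 lower in adult cartilage, against 2.66% and 10.6%, and between the injured libraries 3 were higher and 6 lower, against 1.8% and 3.09%. With median-of-ratios scaling the sham counts were 4 higher and 10 lower, and over all genes tested the shares were then 5.86% and 5.13%.

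Of the other ligands and receptors, Igf2, the fetal and juvenile growth factor, was at 275.5 (sham) and 165.7 (injured) FPKM in young and 8.80 (sham) and 12.5 (injured) FPKM in adult cartilage. Its log2 ratio of adult to young was -4.82 in sham and -3.63 in injured cartilage, lower than that of any of the 9 members. Igf2r, which clears IGF-2, was lower in adult sham by -1.21, a difference under 2-fold with median-of-ratios scaling, whereas Insr, the insulin receptor, stayed under 2-fold at -0.83. Igfals, the acid-labile subunit that joins IGF and Igfbp3 in serum, was at 5.24, 0.885, 0.169 and 0.240 FPKM. It was the only pathway gene lower by 2-fold or more after injury in young cartilage. Igfbp1 was listed at 0 in all 4 libraries.

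Proteases that act on IGF-binding proteins, and their inhibitors, were followed as a list of 12. Of these, 3 were higher by 2-fold or more after injury in young cartilage, where 4.57% of all genes tested were, and 4 in adult cartilage, against 6.9%. With median-of-ratios scaling 3 were higher in adult cartilage, against 4.41%, and 1, Stc2, was lower at -1.25, against 2.9%. Adam12, at 1.17 as deposited, was then under 2-fold at 0.97. Mmp3, a protease that can cleave Igfbp3, was at 4.99, 151.5, 41.2 and 673.4 FPKM, with log2 injury ratios of 4.67 and 3.997. Timp1, an inhibitor of metalloproteinases, had ratios of 2.16 and 3.10, and Mmp9 had ratios of 1.76 and 2.28. Mmp9 is also made by osteoclasts and white blood cells, and the macrophage markers given above moved the same way. The part of these cells was not tested. Htra1, a serine protease, was at 92.5, 84.6, 284.1 and 195.7 FPKM and was higher in adult cartilage by log2 ratios of 1.61 in sham and 1.20 in injured samples. Stc1, an inhibitor of PAPP-A, was at 3.44, 6.19, 0.207 and 0.427 FPKM and was lower in adult cartilage by -1.88 and -2.33. Stc2 of the same list lay the other way, at 19.2, 13.9, 38.1 and 19.7 FPKM. Its log2 ratios of adult to young were 0.96 in sham and 0.48 in injured samples. The sham ratio of Stc2 passed 2-fold with median-of-ratios scaling, at 1.38.

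Of the 25 measured genes of IGF and insulin receptor signalling, 0 passed 2-fold after injury in young cartilage (5.83% of all genes tested) and 2 were higher in adult cartilage (6.9%). These were Grb2, an adaptor, at 1.81 and Pdpk1, a kinase upstream of AKT, at 2.02 on the log2 scale. Between the sham libraries 7 were lower in adult cartilage, against 10.6% of all genes. With median-of-ratios scaling 4 were lower, against 5.13%, and 1 was higher, Foxo1 at 1.38, against 5.86%. Pik3r1, Tsc1 and Rps6kb1 were then under 2-fold. The 4 lower genes included Pdpk1 at -2.75 and Grb10, which restrains receptor signalling, at -2.43. The others were Irs1, the main receptor substrate, at -1.59 and Foxo3 at -1.43, all 4 values as deposited. Of the 10 measured genes downstream of the growth hormone receptor, Socs3 and Ptpn6 were higher by 2-fold or more after injury at both ages, where 4.57% of all genes were in young and 6.9% in adult cartilage. The log2 ratios of Socs3 were 1.80 and 2.44, and those of Ptpn6, a phosphatase of blood cells, were 1.71 and 1.92. Of the 15 macrophage markers 13 were also higher at each age, with median log2 ratios of 3.16 and 2.07, and the part of these cells in the values of Socs3 and Ptpn6 was not tested. Socs2, a STAT5 target that restrains growth hormone signalling, was at 9.49 (sham) and 4.91 (injured) FPKM in young and 2.74 (sham) and 8.25 (injured) FPKM in adult cartilage. Its log2 injury ratio was -0.83 in young and 1.31 in adult cartilage, the latter under 2-fold after quantile normalization. Of the 3 IGF mRNA-binding proteins, Igf2bp2 was lower in adult sham by -2.06.

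**Figure D5:**
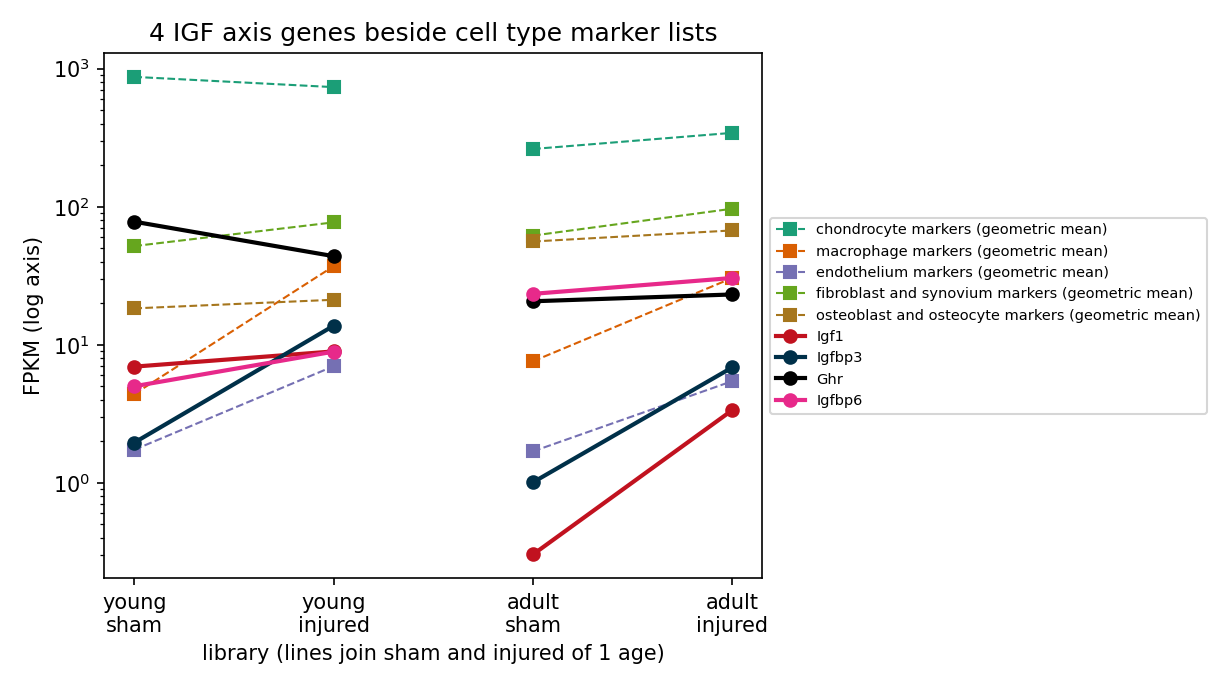
Level in FPKM (log axis) of Igf1, Igfbp3, Ghr and Igfbp6 (circles) and geometric mean level of 5 cell type marker lists (squares) in the 4 libraries. The macrophage and endothelium lists and Igfbp3 lie higher in both injured libraries, and the chondrocyte list, Igf1 and Ghr lie lower in both adult libraries.

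The genes nearest to the other members over the 4 libraries were named by the same distance among the 8055 genes whose mean reached 5 FPKM. Nearest to Igf1 were Fscn1, Matn4 and Epb41, at distances of 0.105 to 0.125. Matn4, a cartilage matrix protein, was at 26.2, 28.8, 3.76 and 13.0 FPKM. Nearest to Ghr was Igdcc4 at 0.0193, with 26.8, 14.3, 6.65 and 7.33 FPKM. Nearest to Igfbp6 was Serpine2, a protease inhibitor, at 0.142, with 304.3, 409.3, 1166 and 1263 FPKM. Vamp4 lay nearest to Igf1r, Cnih1 to Igfbp2, Sh3kbp1 to Igfbp4, Hoxc9 to Igfbp5 and Itgb1bp1 to Igfbp7, at distances of 0.0135 to 0.0449.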

How the data were processed

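RNA was sequenced from 4 pools of mouse articular cartilage, 1 library per group. Per the paper, poly-A selected RNA was made into strand-specific libraries and sequenced paired-end. The authors deposited FPKM for 24532 genes, normalized by transcript length and mapped fragments. The submitters' processing notes name HISAT2 2.1.0, StringTie 1.3.4d, HISAT, STAR and SAMtools with build mm10, and the tool that made the FPKM and its use of strand are not given in the sources used here. Columns were matched to libraries by name. Log2 ratios of FPKM + 1 were calculated for 18181 genes above 0, and 2-fold was the threshold. The members and lists were chosen with earlier results of these data known. Named pathway genes were at least 2-fold changed in a comparison with a mean of at least 1 FPKM, or were Igf2, Igf2r, Insr and Igfbp1. For each member, the 3 genes nearest in pattern were found. Alternatives were added values of 0.1 and 5 FPKM, a filter of 1 FPKM, rescaling to the same sum (TPM), scaling by median of ratios, quantile normalization, and 1.5-fold or 3-fold in place of 2-fold. Rescaling to the same sum raised every library above its deposited sum of 469939 to 533468 FPKM, so the added 1 weighed less under it. For the shares, Igfbp7 was left out or Igfbp1 added. Promoter motifs and transcript length were examined after the values had been seen. The steps of the lowest FPKM put the libraries at about 2.577e+07 to 3.086e+07 fragments if 1 step is 1 fragment. No counting error is given, since whole fragments could not be recovered. Scripts were tested on simulated data and run in Python 3.11.15 (pandas 2.3.3, numpy 2.4.6, matplotlib 3.10.9).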

Additional observations from a re-analysis of the deposited data

Results flagged for a closer look

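Ghr, Igfbp4 and Igfbp5 were singled out because the injured library lay below the sham in young cartilage and above it in adult cartilage, with 1 library in each group. The log2 injury ratio of adult minus young cartilage was 0.97 for Ghr, 1.15 for Igfbp4 and 1.18 for Igfbp5. The difference was not tested, since no group has a second library. For Ghr the adult direction turned with median-of-ratios scaling (-0.17) and with quantile normalization (-0.06), whereas for Igfbp4 and Igfbp5 both directions were kept under each scaling that was run.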

How the results depend on the processing

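No paired analysis was possible because each group has 1 library and the labels give no shared replicate numbers, and no replicate could be left out. With 5 FPKM added, the number of members at 2-fold or more became 0 after injury in adult cartilage (3.09% of all genes) and 1 between the injured libraries (1.94%). It became 2 for the difference between the ages (2.13%), as Igf1 fell under 2-fold. With median-of-ratios scaling it became 1 for that difference (5.76%). At 1.5-fold the numbers were 5 after injury in young (14.3% of all genes), 4 after injury in adult (21.9%), 5 between the sham (31.6%) and 5 between the injured libraries (15.3%). At 3-fold they were 1 between the injured libraries (1.56%) and 0 for the difference between the ages (1.55%). Of 225 ratios of single members under other added values and scalings, 207 kept their direction and side of 2-fold, 6 fell under 2-fold, 3 passed it and 9 changed sign without being past 2-fold. The median of genes at 1 FPKM or more in all libraries moved from 0.23 to -0.06 after injury in adult cartilage, from -0.30 to 0.07 between the sham libraries, and from 0.25 to -0.03 for the difference between the ages, with median-of-ratios scaling. The cause was not tested.

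Without Igfbp7 in the sum, the shares, given for sham and injured young and then sham and injured adult cartilage, were 0.987%, 1.44%, 0.381% and 0.505% for Igfbp2. They were 1.22%, 10.5%, 0.828% and 3.54% for Igfbp3. They were 38.0%, 36.1%, 29.4% and 32.6% for Igfbp4. They were 56.6%, 45.2%, 50.2% and 47.6% for Igfbp5, and 3.13%, 6.78%, 19.2% and 15.7% for Igfbp6. Igf1 then equalled 4.35%, 6.81%, 0.248% and 1.74% of the sum. After quantile normalization Igf1 equalled 0.0325% of the full sum in adult sham cartilage. These shares change by construction, as Igfbp7 makes up most of the sum.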

Other observations

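In 9 of the 59 pathway genes the log2 injury ratio was larger in adult than in young cartilage by 1 or more, and in 0 it was smaller by that much. The differences were 2.32 for Pdpk1, 2.13 for Socs2, 1.81 for Igfals, 1.36 for Grb2, 1.22 for Igf2bp2, 1.20 for Grb10, 1.19 for Igf2, 1.17 for Foxo3 and 1.09 for Cish. All 9 were lowest in the adult sham library, as were 84.6% of all genes that passed 2-fold in this direction. Whether they passed or not, 67.8% of the 59 and 49.2% of all genes tested were lowest there. A low adult sham level favours passing by construction. Over all 18181 genes, 4.6% passed 2-fold in that direction and 1.64% in the other. With median-of-ratios scaling 5 of the 59 genes passed 2-fold with the larger adult ratio, where 2.63% of all genes did. With the libraries rescaled to the same sum, where the added 1 weighed less, 14 of the 59 did, against 10.9% of all genes.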
